A study of Mus musculus with 2 samples.

Results

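The CD28 family set holds 6 of the 32285 genes counted in leukocytes of mouse pancreatic islets: the receptors Cd28, Ctla4 and Icos and the ligands Cd80, Cd86 and Icosl. They were chosen by symbol from the family's textbook members. No measured value was a criterion, although earlier results of these data were known. Each symbol had 1 row in the count matrices. Receptor transcripts were measured by T-cell gate and ligand transcripts by antigen-presenting cell gate, a gate being the cells that carry a stated set of marker transcripts. No member of the set was a gate marker.

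The cells were CD45+ CD31- leukocytes of islets from female NOD mice aged 12 weeks, a strain that develops autoimmune diabetes. One group was WT NOD and the other was labelled NOD.Cxcl16-/-, a line that by its label lacks the chemokine gene Cxcl16. Both share the NOD background, sex and age, and each has 1 library of 10x 3′-end counts, with the number of animals per library not given in the sources used here. With 1 library per group no difference has a replicate check, no p-value is given, and every interval is at the 95% level and covers counting error only.

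After filtering, 10718 cells with 57113096 UMIs (unique molecular identifiers, 1 per captured transcript) were kept from WT NOD mice and 9323 cells with 76703064 UMIs from the mice labelled NOD.Cxcl16-/-. Below, paired values give the WT NOD library first and the library labelled NOD.Cxcl16-/- second. The median depth was 3870.5 and 4894 UMIs per cell, and 45 barcodes occurred in both libraries. Exactly 1 of the 14 gates took 56.9% and 61.3% of the cells. Cxcl16 itself had 68.2 CPM (UMIs for every 1000000 UMIs of the cells summed) and 96.8 CPM, against the second label. The part of the gene that was deleted is not given in the sources used here, so the second library is named by its label throughout, and no difference between the libraries is given as an effect of genotype.

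CD28 is the classic costimulatory receptor of T cells: engaged by CD80 or CD86 on an antigen-presenting cell together with the antigen receptor, it supports activation, survival and cytokine production. CTLA-4 binds the same ligands more tightly, is stored inside the cell, and restrains responses in part by stripping CD80 and CD86 from the presenting cell, a main task of regulatory T cells (Treg). ICOS appears after activation, binds only ICOS ligand and serves follicular helper and regulatory T cells. In the NOD strain, blockade or loss of these pathways is known to change the course of diabetes.

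The receptors lie side by side on mouse chromosome 1 (build GRCm38, + strand, GENCODE M21): Cd28 at chr1:60716800-60773359, Ctla4 at chr1:60887000-60915832 and Icos at chr1:60977927-61000320. The gaps between them are 113640 and 62094 bases. Cd80 at chr16:38455561-38496335 on the + strand and Cd86 at chr16:36603869-36666081 on the - strand share chromosome 16, 1789479 bases apart. Icosl lies at chr10:78069302-78083913 on the + strand. The sequences that follow show what separates ICOS from the other receptors, the loop that touches the ligand. Each was read from the GRCm38 reference, which is not the NOD strain, 5′ to 3′, from exon 2 of the 4 exons of the annotated transcript, with the codons of the loop in capitals.

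Cd28 loop, chr1:60763263-60763304: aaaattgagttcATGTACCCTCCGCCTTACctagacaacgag

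Ctla4 loop, chr1:60912701-60912742: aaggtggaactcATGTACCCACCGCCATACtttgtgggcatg

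Icos loop, chr1:60993971-60994012: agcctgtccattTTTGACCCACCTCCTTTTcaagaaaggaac

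Of the 18 capital bases, 16 were identical between Cd28 and Ctla4, the pair that shares CD80 and CD86. Icos had 11 in common with each of them. The short motif of the cytoplasmic tail differs in another order. In CD28 and ICOS it binds the kinase PI3K, and in CTLA-4 it also binds the adaptor that pulls the receptor into the cell. It lies in exon 4 of 4, with its codons in capitals.

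Cd28 tail, chr1:60769681-60769716: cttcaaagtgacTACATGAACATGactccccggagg

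Ctla4 tail, chr1:60914634-60914669: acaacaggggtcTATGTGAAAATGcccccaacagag

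Icos tail, chr1:60995548-60995583: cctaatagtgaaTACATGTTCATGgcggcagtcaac

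Here 10 of 12 capital bases were identical between Cd28 and Icos, 9 between Cd28 and Ctla4, and 7 between Ctla4 and Icos. The 3′-end counts do not tell splice forms of a gene apart, so soluble or ligand-independent forms of Ctla4 are counted with the full-length form.

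Among the receptors, Cd28 was spread most evenly over the T-cell gates. Its level in conventional CD4 T cells was 454 CPM (interval 439 to 471) and 504 CPM (489 to 519). Treg cells had 363 and 412 CPM, CD8 T cells 309 and 372 CPM, gamma-delta T cells 272 and 312 CPM, and natural killer (NK) cells 238 and 271 CPM. The ranges of the libraries overlapped between Treg and CD8 T cells and between CD8 and gamma-delta T cells, but not between conventional CD4 and Treg cells. B cells, taken as the comparison cell type for the receptors, had 4.0 and 4.1 CPM of Cd28, 23.7 and 31.0 CPM of Ctla4 and 3.50 and 1.92 CPM of Icos.

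Ctla4 followed a steep order with Treg cells on top. Their level was 1493 CPM (1436 to 1552) and 1615 CPM (1570 to 1661). Conventional CD4 T cells had 865 and 897 CPM, CD8 T cells 433 and 562 CPM, and gamma-delta T cells 129 and 131 CPM. NK cells had 82.3 and 139 CPM. The first 3 gates did not overlap between neighbours in either library, while gamma-delta T and NK cells did.

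Icos had the same leading gates but also a level in innate cells. Treg cells had 694 CPM (655 to 735) and 733 CPM (703 to 764), and conventional CD4 T cells 475 and 547 CPM. Group 2 innate lymphoid cells (ILC2), tissue cells that make type 2 cytokines, had 367 CPM (261 to 502) from 25 cells and 487 CPM (404 to 582) from 55 cells. That range overlapped the one of conventional CD4 T cells and lay above CD8 T cells, with 217 and 249 CPM. ILC2 were the reverse of NK cells, which had 33.8 and 69.7 CPM of Icos but far more Cd28. In ILC2, Cd28 gave 4 UMIs in each library. The summed Cd3d, Cd3e and Cd3g level of the ILC2 gate was 509 and 330 CPM, with all 3 genes detected, and its part in the Icos level was not tested. In the NK gate that sum was 658 and 694.5 CPM, also with all 3 genes detected. Its part in the receptor levels of NK cells, Cd28 among them, was not tested.

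**Figure D1:**
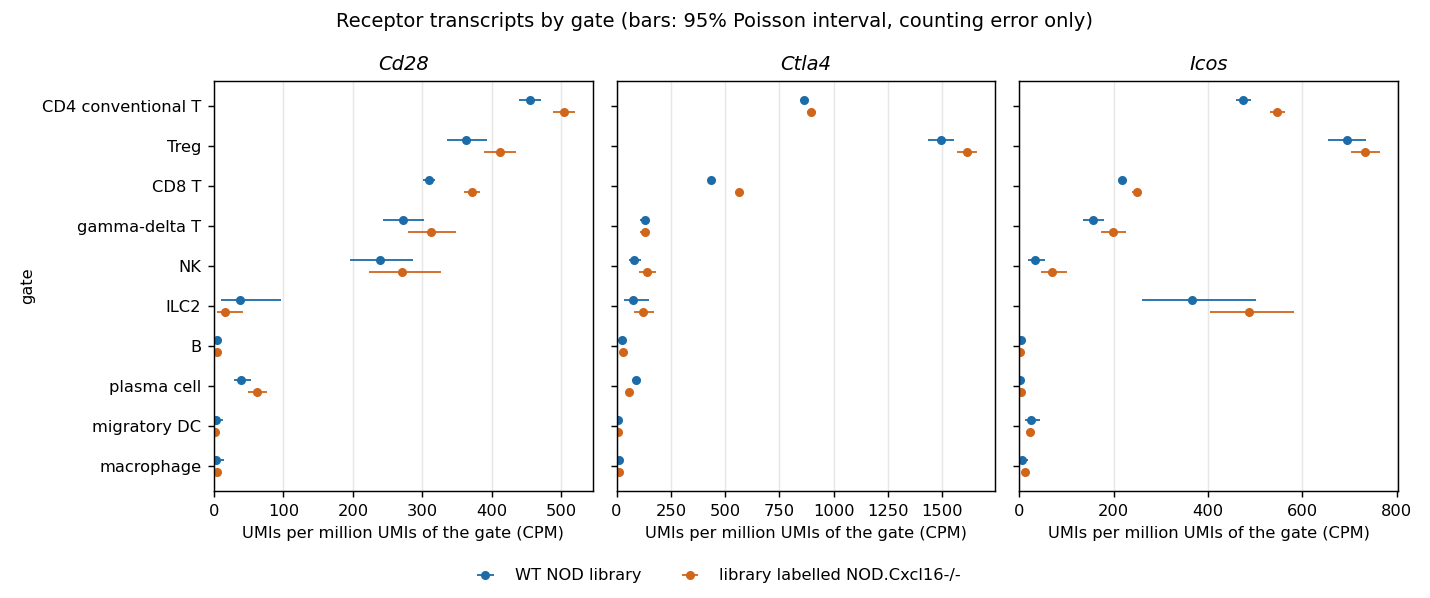
Receptor transcripts in 10 gates. The x axes give CPM of the gate, each point is 1 library (blue WT NOD, orange the library labelled NOD.Cxcl16-/-) and bars are 95% Poisson intervals. Ctla4 is highest in Treg cells (1493 and 1615 CPM), Cd28 in conventional CD4 T cells, and Icos also stands out in ILC2.

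Treg and conventional CD4 T cells differed in the receptors in opposite ways. A gene was called between gates when it differed by 1.5-fold or more in the same direction in both libraries, among genes that in each library had 20 CPM or more in either gate. Of 5858 genes, 4.88% were higher and 2.63% lower in Treg cells by this rule. Of the receptors, 1 of 3 was called: Ctla4 was higher, with log2 ratios of 0.79 (0.72 to 0.85) and 0.85 (0.80 to 0.90). Icos was higher by 0.55 and 0.42, under the threshold, and Cd28 was lower by log2 values of -0.32 and -0.29. Counted against each other, Treg cells had 4.11 (3.77 to 4.50) and 3.92 (3.69 to 4.18) Ctla4 UMIs for each Cd28 UMI. The same ratio was 1.90 and 1.78 in conventional CD4 T cells, 1.40 and 1.51 in CD8 T cells, 0.475 and 0.420 in gamma-delta T cells and 0.345 and 0.514 in NK cells. The intervals of Treg, conventional CD4, CD8 and gamma-delta T cells did not overlap in either library.

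Conventional CD4 over CD8 T cells gave calls for Ctla4 and Icos. In this comparison 7.19% of 5810 genes were higher and 3.51% lower in the CD4 cells. Icos differed most, by log2 1.13 in both libraries, and Ctla4 by 1.00 and 0.68. Cd28 was higher by 0.55 and 0.44 and was not called. Gamma-delta T cells lay below conventional CD4 T cells in all 3 receptors (9.12% of 5922 genes were called lower and 7.41% higher), with log2 ratios of -2.73 and -2.77 for Ctla4, -1.60 and -1.46 for Icos and -0.74 and -0.69 for Cd28. NK cells lay below CD8 T cells in Ctla4 (log2 -2.38 and -2.00) and Icos (-2.65 and -1.82), where 8.96% of 5984 genes were called lower and 13.8% higher, and were not called for Cd28 (-0.37 and -0.45).

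For Ctla4, shares of cells repeat the order of Treg, conventional CD4 and CD8 T cells when depth is made equal. With each cell thinned to 2000 UMIs and shallower cells left out, Ctla4 was seen in 92.1% (88.0 to 95.2) of 241 and 90.4% (87.1 to 93.2) of 387 Treg cells, against 95.5% and 97.8% unthinned. Thinned conventional CD4 T cells had a Ctla4 UMI in 63.0% and 66.4%, and CD8 T cells in 48.3% and 57.6%. Icos was seen in 71.8% and 73.1% of thinned Treg cells, and Cd28 in 50.2% and 56.9%. Conventional CD4 T cells had Cd28 in 59.5% and 63.9% in this thinning. That order for Cd28 is not settled, because another thinning, given below, brought other shares. In B cells, with median depths of 4550 and 4656.5 UMIs against 4457 and 4895.5 in Treg cells, the thinned shares were 0.468% and 0.762% for Cd28, 4.01% and 6.37% for Ctla4 and 0.668% and 0.599% for Icos.

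Within single cells, all 3 receptors were seen more often in Treg and conventional CD4 T cells than in CD8 or gamma-delta T cells. Such a share rises with the share of cells in which each receptor is seen. No share expected from the single receptors was computed, so this order is not a measure of joint expression. All 3 receptors had a UMI in 31.5% and 42.4% of thinned Treg cells, in 29.2% and 31.3% of conventional CD4 T cells, in 10.5% and 13.4% of CD8 T cells and in 1.74% and 1.05% of gamma-delta T cells. None was seen in 2.07% and 1.81% of Treg cells but in 42.6% and 37.7% of gamma-delta T cells. In conventional CD4 T cells, Ctla4 was seen in 74.9% and 75.2% of the cells with an Icos UMI and in 47.2% and 50.4% of those without. In CD8 T cells the corresponding shares were 64.2% and 70.9% against 43.6% and 49.7%. Cd28 differed less with Icos in CD8 T cells, at 51.6% and 54.2% against 43.1% and 49.1%. In Treg cells of the WT NOD library, Cd28 was seen in 49.4% of the cells with an Icos UMI and in 52% of those without. These are shares of cells from 1 library each and describe those cells. They come from another random thinning than the shares given before. In the library labelled NOD.Cxcl16-/-, it had Cd28 in 62.2% of Treg cells with an Icos UMI and 62.4% without. The earlier thinning gave 56.9% of all Treg cells. Spread between thinnings was not measured, so the order of Treg and conventional CD4 T cells is not settled for Cd28 or for all 3 receptors together.

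The T-cell states, defined by other marker transcripts, separated Ctla4 and Icos further. Among conventional CD4 T cells, those with Il21 or Cxcr5, transcripts of follicular helper cells, had 1249 and 1272 CPM of Ctla4 and 623 and 709 CPM of Icos. Th1-like cells (Ifng, Tbx21 or Cxcr3) were close to them, with 1149 and 1164 CPM of Ctla4 and 583 and 765 CPM of Icos. Cells with Nrn1 or Tnfsf8, transcripts seen in anergic cells, had 1010 and 1089 CPM of Ctla4. The non-cycling CD4 T cells in none of these states had 663 and 657 CPM of Ctla4 and 408 and 448 CPM of Icos. They lay lower in Ctla4 than each of these states in both libraries, with no overlap of the intervals.

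Cd28 did not share that order. Th1-like CD4 T cells had the most, 638 CPM (577 to 703) and 699 CPM (649 to 753), and the cells in none of the states had 498 and 555 CPM. Cells with Il21 or Cxcr5 had 448 and 550 CPM. The lowest Cd28 level among CD4 states was in cycling cells (Mki67 or Top2a), with 285 and 316 CPM, which also had only 553 and 571 CPM of Ctla4 and 316 and 355 CPM of Icos. Cycling cells were far deeper, at medians of 15808.5 and 16515 UMIs against 3798.5 and 4019 in the cells of none of the states, and the part of total RNA content in their lower CPM was not tested.

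Cycling Treg and CD8 T cells also had lower values of Ctla4. Non-cycling Treg cells had 1741 and 2035 CPM of Ctla4 and cycling ones 969 and 977 CPM. Their Icos level was 791 and 853 CPM without cycling and 491 and 551 CPM with it. Among CD8 T cells, those with Entpd1 or Havcr2, transcripts linked to long antigen exposure, had 665 and 749 CPM of Ctla4 and 324 and 322 CPM of Icos. Cycling CD8 T cells had 332 and 399 CPM of Ctla4, and the remaining CD8 T cells 453 and 635 CPM. Cd28 was 315 and 339 CPM in the Entpd1 or Havcr2 cells, and the remaining CD8 T cells had more, 358 and 467 CPM.

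**Figure D2:**
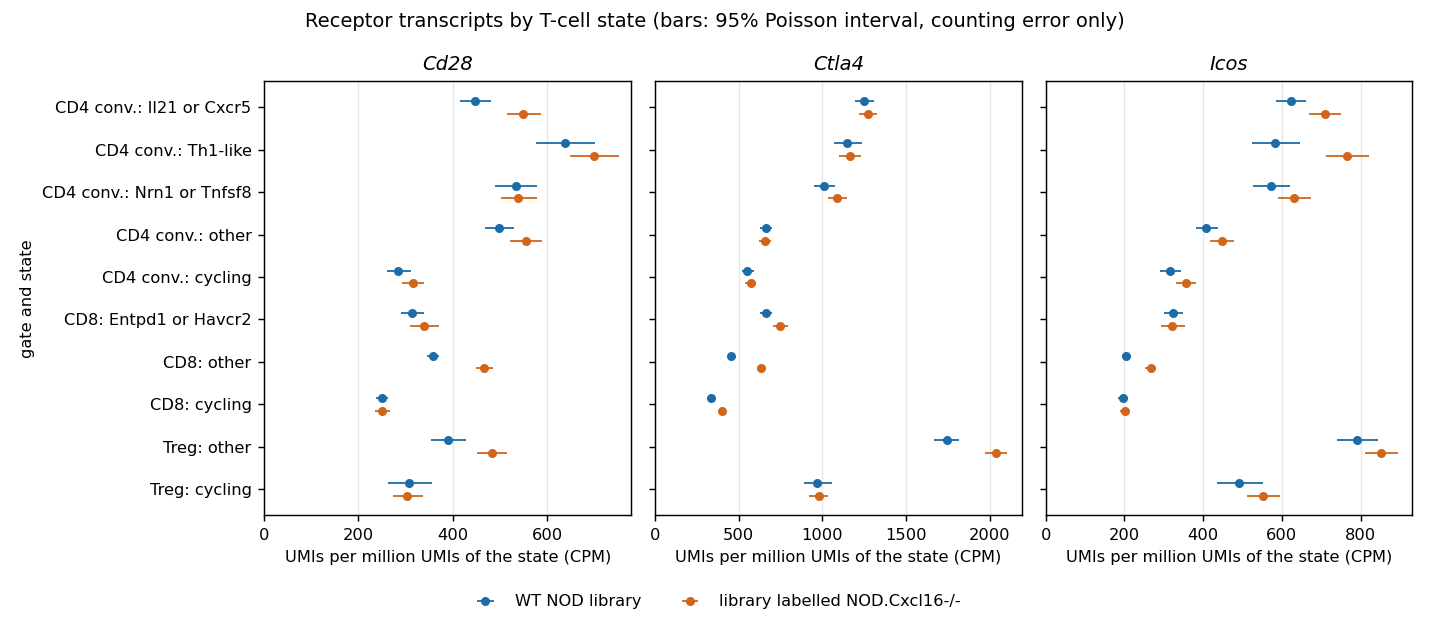
Receptor transcripts by state of conventional CD4 T, CD8 T and Treg cells. The x axes give CPM of the state, points are libraries (blue WT NOD, orange the library labelled NOD.Cxcl16-/-) and bars are 95% Poisson intervals. Cycling cells lie lowest for Ctla4 within each gate, Th1-like CD4 T cells (638 and 699 CPM) lie highest for Cd28, and "other" stands for the cells of a gate in none of its states.

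On the ligand side, Cd86 was found in B cells and the myeloid gates, and Cd80 and Icosl were narrower. CD86 is made constitutively by dendritic cells (DC) and macrophages, while CD80 usually follows activation. The antigen-presenting gates held far fewer cells than the T-cell gates, apart from 1611 and 1888 B cells. They held 36 and 107 macrophages, 29 and 58 type 1 conventional DC (cDC1, with Xcr1 or Clec9a), 24 and 43 Cd209a or Clec10a DC (cDC2), 40 and 82 migratory DC (with Fscn1) and 23 and 26 monocytes. Intervals are accordingly wide.

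Cd86 stood at 565 CPM (468 to 678) and 627 CPM (561 to 699) in cDC2, at 494 and 568 CPM in migratory DC and at 477 and 518 CPM in cDC1. Macrophages had 430 CPM (368 to 499) and 654 CPM (610 to 700), and monocytes 423 and 355 CPM. These myeloid gates overlapped with a neighbour in rank down to cDC1. B cells lay below them in each library, at 289 and 327 CPM (316 to 338), although the monocyte interval of the library labelled NOD.Cxcl16-/- (291 to 430) included the B-cell value. B cells held 30.5% and 21.9% of all Cd86 UMIs of the kept cells. Plasmacytoid DC, with 14 and 20 cells, had 182 CPM, with 16 of 17 UMIs in 1 cell, and 38.2 CPM of Cd86, and 0 and 1 UMIs of Cd80. CD8 T cells, the background for the ligands, had 14.3 and 19.6 CPM.

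Cd80 was highest in cDC2, with 106 CPM (66.6 to 161) and 198 CPM (162 to 240), and in migratory DC, with 113 CPM (83.2 to 151) and 169 CPM (145 to 196). Those 2 gates overlapped. Being small, they held few of the Cd80 UMIs of the kept cells: cDC2 1.98% and 3.50%, and migratory DC 4.22% and 6.01%. B cells held 9.61% and 6.52% and CD8 T cells 11.2% and 5.64%, and all gates together 35.7% and 31.6%. The level was 41.1 and 97.4 CPM in cDC1, 43.7 and 77.8 CPM in monocytes, 32.7 and 41.6 CPM in macrophages and 13.4 and 17.6 CPM in B cells. CD8 T cells had 7.93 CPM (6.6 to 9.45) and 14.5 CPM, and B cells lay above them without overlap of the intervals in the WT NOD library, with an interval of 10.95 to 16.15 CPM.

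Icosl was a transcript of migratory DC and, at a lower level, of B cells. Migratory DC, which are mature cells on their way to a lymph node or lodged in tissue lymphoid structures, had 104 CPM (75.0 to 140) and 73.4 CPM (58.0 to 91.8). The next gates were cDC1, with 33.9 and 21.4 CPM, and B cells, with 29.0 CPM (25.4 to 33.0) and 22.2 CPM (19.5 to 25.2). B cells nevertheless held 43.2% and 31.9% of all Icosl UMIs of the kept cells and migratory DC 8.01% and 10.1%. CD8 T cells had 1.33 and 0.437 CPM. Treg cells had 0 UMIs in both libraries, which allows a level of up to 1.74 and 0.979 CPM (3 UMIs per library).

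**Figure D3:**
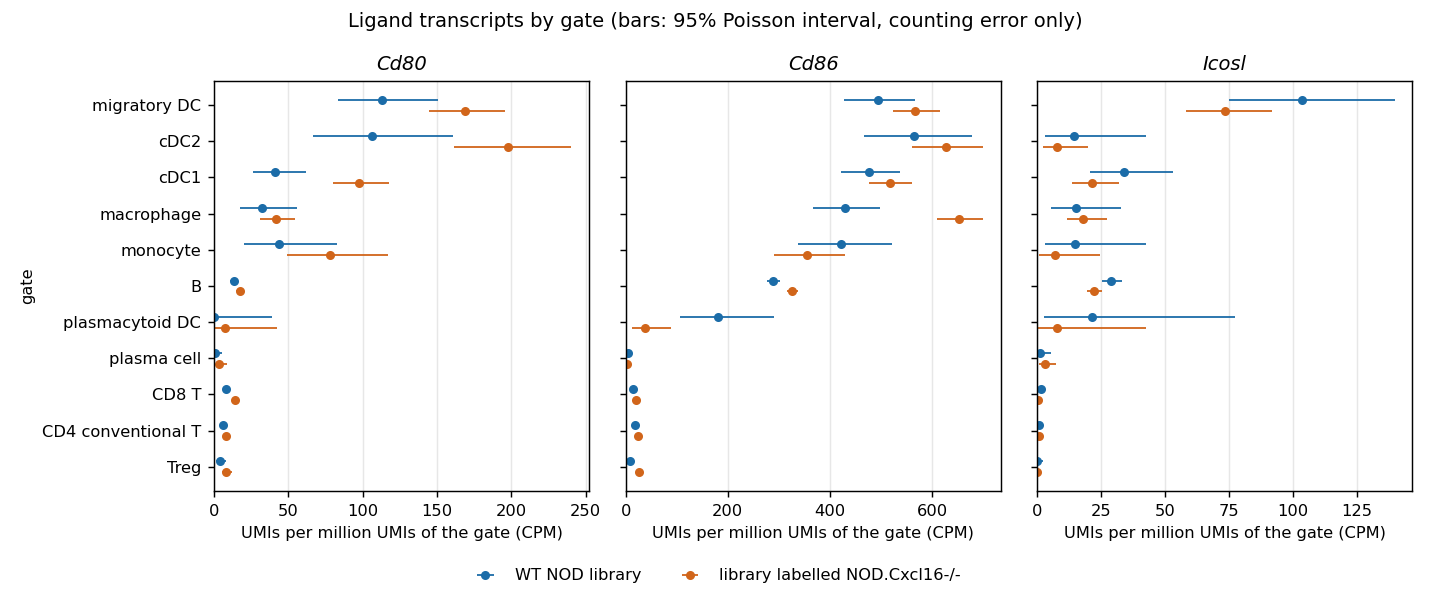
Ligand transcripts in 11 gates. The x axes give CPM of the gate, points are libraries (blue WT NOD, orange the library labelled NOD.Cxcl16-/-) and bars are 95% Poisson intervals. Cd86 is seen in B cells (289 and 327 CPM) and in the macrophage, monocyte, cDC1, cDC2 and migratory DC gates. The CPM of Cd80 is highest in cDC2 and migratory DC, and that of Icosl in migratory DC.

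All 3 ligands were called higher in migratory DC than in B cells, a comparison of very different cells in which 21.0% of 5851 genes were called higher and 30.5% lower. The log2 ratios were 2.99 (2.56 to 3.59) and 3.20 (2.96 to 3.57) for Cd80, 1.80 (1.33 to 2.31) and 1.68 (1.34 to 2.10) for Icosl and 0.77 and 0.79 for Cd86. With no UMI of other lineages allowed, the Icosl ratios were 1.03 (0.25 to 1.77) and 1.09 (0.53 to 1.68), still past 1.5-fold. Migratory DC and cDC2 differed in only 1 ligand. Icosl was higher in migratory DC by log2 2.76 and 3.10, where 12.8% of 5157 genes were called higher and 14.7% lower, while Cd80 (0.091 and -0.23) and Cd86 (-0.19 and -0.14) were not called. The Icosl value of cDC2 rests on 3 and 4 UMIs. Against macrophages, migratory DC were higher in Cd80 by 1.76 and 2.0 and in Icosl by 2.70 and 1.97, with 17.3% of 5429 genes called higher and 19.0% lower.

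The balance of Cd80 to Cd86 set migratory DC apart from macrophages and B cells, but not all presenting gates from each other. Migratory DC had 0.229 (0.163 to 0.316) and 0.298 (0.250 to 0.352) Cd80 UMIs for each Cd86 UMI, and cDC2 had 0.188 and 0.316. Macrophages had 0.0760 and 0.0636, and B cells 0.0462 (0.0377 to 0.0561) and 0.0537 (0.0462 to 0.0621). In cDC1 the ratio was 0.0861 (0.0537 to 0.132) and 0.188 (0.152 to 0.231), without overlap between the libraries. Monocytes had 0.103 (0.0458 to 0.206) and 0.219 (0.133 to 0.347), which overlapped migratory DC in both libraries and macrophages in the WT NOD library. Migratory DC lay above B cells and macrophages in both libraries without overlap of the intervals.

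**Figure D4:**
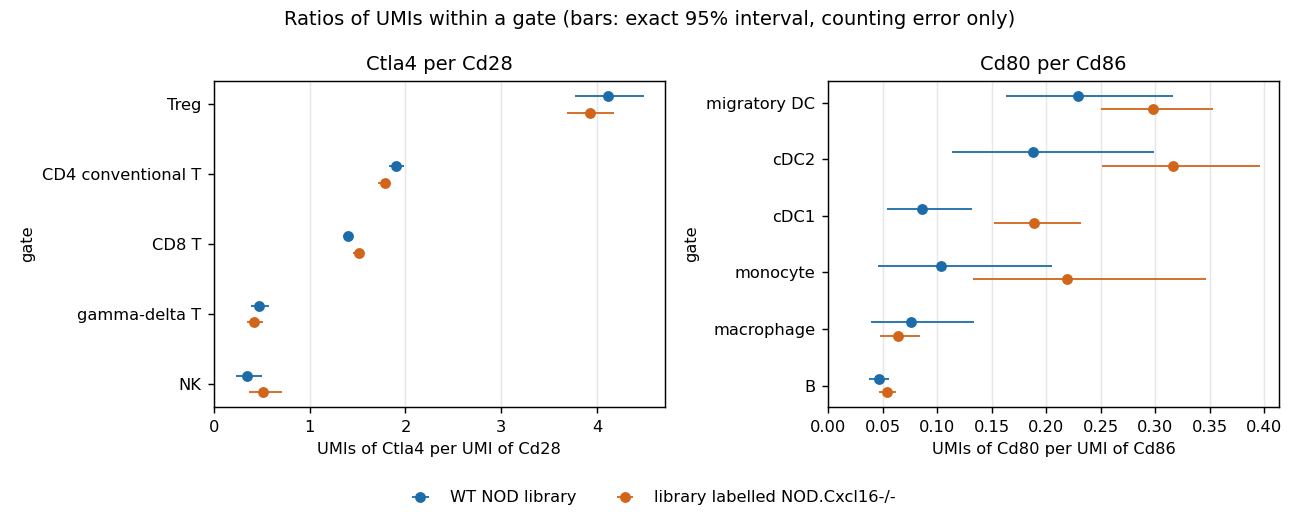
Ctla4 UMIs per Cd28 UMI in 5 gates (left) and Cd80 UMIs per Cd86 UMI in 6 gates (right). Points are libraries (blue WT NOD, orange the library labelled NOD.Cxcl16-/-) and bars are exact 95% intervals. Treg cells lie near 4.11 and 3.92 on the left, and migratory DC and cDC2 lie highest on the right.

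Thinned shares of cells gave the ligands the same contrast. Cd86 was seen in 38.1% of 1497 and 42.7% of 1837 thinned B cells and in 55.9% and 63.4% of macrophages, against 2.95% and 3.20% of CD8 T cells. The median depth was 4550 and 4656.5 UMIs in B cells, 11985 and 11989 in macrophages and 4746 and 5522 in CD8 T cells. Cd80 was seen in 22.9% and 25.0% of thinned migratory DC but in 1.67% and 2.29% of B cells, no more than the 1.91% and 2.54% of CD8 T cells. Icosl was seen in 14.3% (4.81 to 30.3) of 35 and 16.3% (8.95 to 26.2) of 80 thinned migratory DC. It was seen in 6.01% (4.86 to 7.34) and 5.12% of B cells and 0.362% and 0.145% of CD8 T cells. The intervals of migratory DC and B cells overlapped in the WT NOD library but not in the other. Unthinned, these Icosl shares were 45.0% and 42.7%, 12.8% and 11.8%, and 0.752% and 0.345%.

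B-cell states differed in which ligand they carried. B cells with Bhlhe41 and without Fcer2a had the most Cd86, 409 CPM (369 to 452) and 393 CPM (360 to 428), and more Cd80 than the Fcer2a cells, 38.7 and 27.8 CPM against 3.68 and 6.36 CPM. The Fcer2a cells, in which the transcript of the follicular marker CD23 is found, had 265 and 309 CPM of Cd86. Icosl was the other way round, at 33.7 CPM (28.1 to 40.0) and 29.8 CPM (24.9 to 35.3) in the Fcer2a cells and 15.0 (8.22 to 25.2) and 16.6 CPM (10.4 to 25.1) in the Bhlhe41 cells. The Icosl intervals of the Fcer2a and Bhlhe41 cells did not overlap in the WT NOD library and touched in the other. The remaining non-cycling B cells had 290 and 380 CPM (360 to 401) of Cd86, overlapping the Bhlhe41 cells in the library labelled NOD.Cxcl16-/-. Their Cd80 level was 15.9 and 23.6 CPM. Cycling B cells had 29.0 and 26.2 CPM of Cd80 and 13.2 and 10.9 CPM of Icosl, but 238 and 198 CPM of Cd86.

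Between the libraries, ratios are given where a member had 50 UMIs or more in a gate over both libraries, and a ratio of 1.5-fold or more is a call. Of 37 such ratios, 33 were above 0 on the log2 scale (library labelled NOD.Cxcl16-/- over WT NOD, with 1 CPM added) and 4 below, and 7 were called higher and 1 lower. In the T-cell gates, all 12 receptor ratios were above 0 and none was called, with a median of 0.19 and a range of 0.020 to 0.37. With cells thinned to 2000 UMIs, Icos in gamma-delta T cells passed 1.5-fold, at 0.67. The medians of all tested genes were 0.049 in CD8 T, 0.035 in conventional CD4 T, 0.027 in Treg and 0.062 in gamma-delta T cells. Called genes were few there too: 1.02% higher and 0.608% lower in CD8 T cells, 1.01% and 0.495% in conventional CD4 T cells, and 2.51% and 2.38% in Treg cells. In gamma-delta T cells they were 8.49% and 4.78%. These shares are of genes with 20 CPM or more in either library, a limit that was not set for the members. Cd80 in CD8 T cells, at 7.93 and 14.5 CPM, is under it. The calls outside the ligands' own gates were Ctla4 in NK cells (0.75 from 39 and 56 UMIs, with 12.6% of 6221 genes called higher and 11.6% lower), Cd28 (0.64) and Ctla4 (-0.63) in plasma cells, where 14.4% of 3129 genes were called higher and 6.58% lower, Cd80 in CD8 T cells (0.80) and Cd86 in Treg cells (1.38 from 16 and 79 UMIs, 18 of the latter in 1 cell, and -0.029 with cells thinned to 2000 UMIs). Of these, Cd80 in CD8 T cells was called in all 11 alternatives, Ctla4 in NK cells and Cd86 in Treg cells in 9 each, and Cd28 and Ctla4 in plasma cells in 7 each. The NK ratio was 0.083 as a mean over cells and 0.36 with cells thinned to 2000 UMIs. A Ctla4 UMI was seen in 23.6% and 23.4% of unthinned NK cells.

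The largest receptor ratio in those gates was Ctla4 in CD8 T cells, at 0.37 (0.33 to 0.42). Cd28 and Icos there were at 0.26 (0.21 to 0.33) and 0.20 (0.13 to 0.27). In conventional CD4 T cells Cd28 was at 0.15 (0.081 to 0.22), Ctla4 at 0.053 (0.0037 to 0.10) and Icos at 0.20 (0.14 to 0.27). In Treg cells Ctla4 was at 0.11 (0.045 to 0.18) and Icos at 0.079 (-0.022 to 0.18), and both fell below 0, to -0.15 and -0.047, when each gate asked for 1 more marker UMI. Ctla4 in gamma-delta T cells, at 0.020, was below 0 in 4 alternatives.

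Among the antigen-presenting gates, 13 ligand ratios could be formed, of which 10 were above 0 and 3 were called, all higher. Cd80 was called in cDC1, at 1.23 (0.59 to 1.96), and in cDC2, at 0.89 (0.22 to 1.63), gates in which 16.0% of 5415 and 15.6% of 5646 genes were called higher and 8.83% and 21.4% lower. Cd86 was called in macrophages, at 0.60 (0.37 to 0.85), where 15.1% of 5728 genes were called higher and 14.4% lower. Cd80 in cDC2 was called in all 11 alternatives. Cd80 in cDC1 was called in 10, with 0.50 in thinned cells. Cd86 in macrophages was called in 9, and was under the threshold as a mean over cells (0.48) and with the lineage limit scaled to depth (0.48). The summed pancreatic endocrine markers of the macrophage gate, all 3 detected, were 9043 and 13669 CPM, and their part in the ratio was not tested. Cd80 in migratory DC was at 0.57 (0.10 to 1.07), just under the threshold, but past it with cells thinned to 2000 UMIs (1.23, -0.16 to 2.97) and with the lineage limit scaled to depth (0.65), with 19.9% of 5455 genes called higher, 9.37% called lower and a median of all genes of 0.12. In all these small gates the share of called genes was high, and the WT NOD side held 24 to 40 cells.

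Icosl went the other way. It was at -0.37 (-0.65 to -0.12) in B cells, where the median of all genes was 0.050 and 2.42% were called higher and 0.813% lower, and at -0.49 (-1.05 to 0.077) in migratory DC. Neither was called. With cells thinned to 2000 UMIs the B-cell ratio was 0.0084. Cd86 and Cd80 in B cells were at 0.18 (0.10 to 0.25) and 0.37 (0.045 to 0.75).

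**Figure D5:**
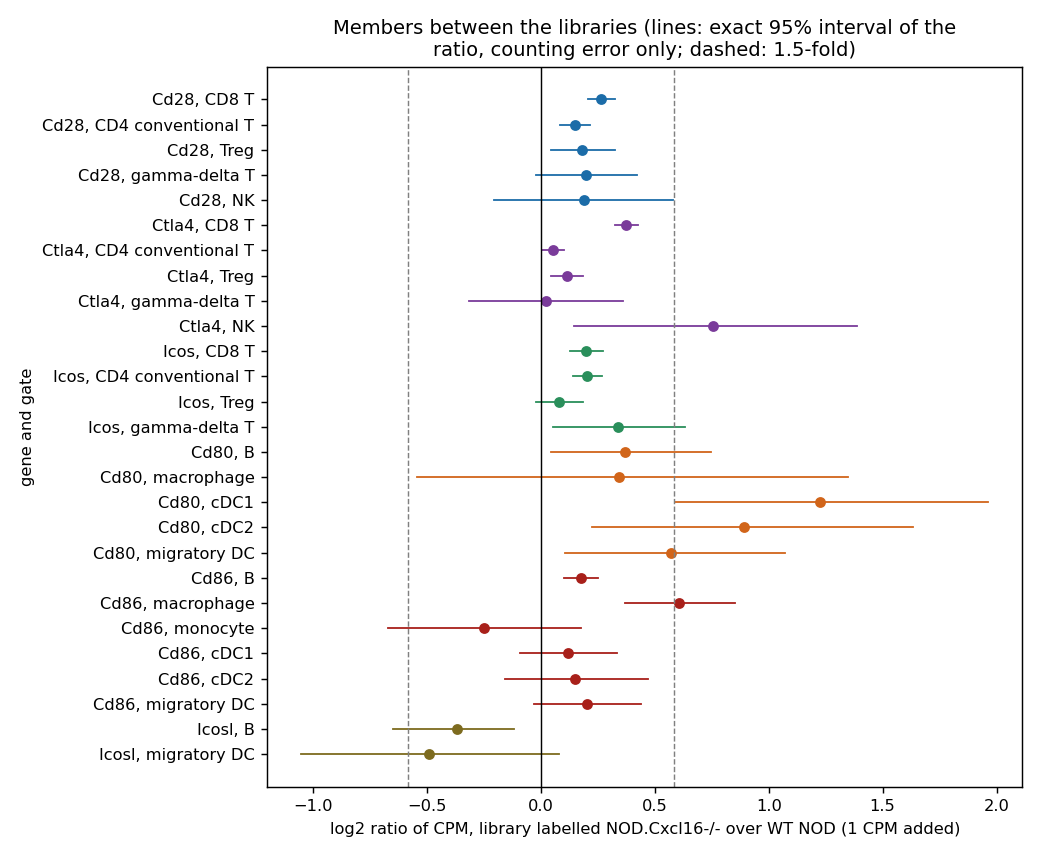
Log2 ratio of CPM between the libraries (library labelled NOD.Cxcl16-/- over WT NOD, 1 CPM added) for the members with 50 UMIs or more in T-cell, NK and antigen-presenting gates. Lines are exact 95% intervals of the ratio without the added CPM, colours are genes and dashed lines mark 1.5-fold. The receptors in T-cell gates lie between 0.020 and 0.37, and Cd80 in cDC1 (1.23) lies farthest to the right.

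The other genes of the pathway were followed in a list of 41, covering signalling downstream of CD28 and ICOS, target genes, CTLA-4 trafficking, control of Icos mRNA and turnover of the ligands. Between Treg and conventional CD4 T cells, Foxp3, a marker of the gate, was set aside. Of the other 36 tested genes, 5 were higher (all genes 4.88%) and 4 were lower (2.63%), and the list's median log2 ratio was 0.0058 beside 0.088 for all genes. Lrba, whose protein rescues CTLA-4 from degradation, was among the higher ones, at 297 against 138 CPM and 257 against 127 CPM. Maf, a transcription factor downstream of ICOS, was at 635 against 405 CPM and 644 against 289 CPM. Lower in Treg cells were Cd40lg, the helper signal that induces CD80 and CD86 on presenting cells, at 17.4 against 132 CPM and 18.9 against 115 CPM, with Il21, Themis and Nfatc1.

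Conventional CD4 over CD8 T cells had 12 of 36 tested genes higher (all genes 7.19%) and 0 lower (3.51%). The list's median was 0.28 beside 0.023 for all genes. The NF-kappaB branch of CD28 signalling was among the higher genes, with Malt1 at 352 against 142 CPM and 365 against 167 CPM, Rel at 306 against 161 CPM and 349 against 178 CPM, and Nfkb1. Maf was at 405 against 29.2 CPM and 289 against 26.5 CPM. Zc3h12a, whose product degrades Icos mRNA, was at 79.2 against 47.5 CPM and 81.4 against 49.6 CPM.

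In migratory DC over B cells, 4 of 29 tested genes were higher (all genes 21.0%) and 10 lower (30.5%). Cd40, the receptor for Cd40lg, was at 263 against 83.8 CPM and 329 against 83.2 CPM. Cd274, whose protein PD-L1 also binds CD80 on the same cell, was at 636 against 169 CPM and 576 against 146 CPM. March1, a ubiquitin ligase that removes CD86 from the surface, was lower, at 7.23 against 103 CPM and 24.8 against 97.5 CPM. The list's median was -0.41 beside -0.29 for all genes.

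Between the libraries the list had 0 calls among 30 tested genes in CD8 T cells, 37 in conventional CD4 T cells and 28 in B cells. In Treg cells 2 of 35 were higher, where 2.51% of all genes were, and 0 lower (2.38%). They were Vav1 at 0.81 (0.30 to 1.41) and Adam10 at 0.64 (0.27 to 1.04). In macrophages 4 of 28 were higher and 4 lower, close to the 15.1% and 14.4% of all genes, so the counts are no result about the list. Nfkb1 (0.91, 0.56 to 1.29), Nfatc2 and Grap2 were among the higher ones. The lower ones were Cd274 (-1.04, -1.29 to -0.80), Cd40 (-0.75, -1.14 to -0.36), March1 and Def6.

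Over the 28 points of gate and library, each member was set against all genes that were no gate marker and reached 20 CPM in a point. Points of 1 library share its depth, and points of related gates share their lineage, so these Pearson correlations of log2 CPM are a description. For Cd28 the nearest genes were Tigit (r = 0.91), Tox, Rgs16, Ndfip1 and Itm2a, and for Ctla4 Hacd3 (0.92), Trac, Neb, Tox and Bicdl1. Near Icos were Bcl11b (0.94), Camk4, Tnfrsf9 and Pdcd1. For Cd86 they were Cd40 (0.95), Plekho1, Ifi30, Ciita and Plbd1, for Cd80 Nectin1 (0.92), Rtn1, Pik3r6, Adam22 and Gm36486, and for Icosl Nuak2 (0.84), Il4i1, H2-Oa, Nrros and Marcks. Tox was near both Cd28 and Ctla4. Within the set, Cd28 and Ctla4 had r = 0.86, Cd28 and Icos 0.74, Ctla4 and Icos 0.78, Cd80 and Cd86 0.83, Cd86 and Icosl 0.57 and Cd80 and Icosl 0.42. Every pair of a receptor and a ligand was below 0, from -0.414 for Icos and Cd80 to -0.885 for Ctla4 and Icosl.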

How the data were processed

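The authors deposited 1 matrix of unnormalised UMI counts for each library, made with Cell Ranger 7.0.1 and build mm10, per the submitters' processing notes. The annotation and the use of intronic reads are not given in the sources used here. Of 32285 gene IDs, 32235 occur in GENCODE M21. Barcodes with fewer than 500 genes or over 10% mitochondrial UMIs were left out, and the highest doublet scores (0.8% per 1000 barcodes, 1537 and 891 barcodes) were removed. Gates asked for marker UMIs and at most 1 UMI of each other lineage. UMIs were summed per gate and library and scaled to CPM. With 1 library per group, no test was run. Intervals are Poisson, Clopper-Pearson or exact for ratios. Log2 ratios of CPM have 1 CPM added and their intervals do not, which matters most for genes of low CPM. The ratio script was tested on simulated data. Python 3.11.15, numpy 2.4.6, scipy 1.17.1 and pandas 2.3.3 were used. The 6 members, the 41 genes, the gates and states were chosen with earlier results of these data known. A gene's symbol was named where its ratio between the libraries passed 1.5-fold in a gate given, and for each member the 5 genes nearest by correlation were named. Genes of the list named between gates, and the states and pairs described, were chosen after their values were seen. Some genes that these rules would name are not reported here. Of the 12 other settings tried, 1 was chosen after seeing the data.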

Additional observations from a re-analysis of the deposited data

How the results depend on the processing

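No paired analysis was possible because each group has 1 library. For the same reason no replicate could be left out. Of the 22 main results, none changed the sign of a called value, and 199 of their values stayed within the counting interval of the reported value (for counts of genes, within 1.5 times of it) while 49 moved. Dropping the gene minimum to 200 and the mitochondrial limit to 5% moved none of them. At a gate minimum 1 UMI higher, the Treg ratios between libraries were -0.15 for Ctla4 and -0.047 for Icos. Ctla4 in Treg over conventional CD4 T cells was then 0.90 and 0.63, Icos in conventional CD4 over CD8 T cells 1.23 in the library labelled NOD.Cxcl16-/-, and 156 (CD4) and 909 (Treg) genes passed 1.5-fold between libraries. With cells thinned to 2000 UMIs, the ratios between libraries were 1.23 for Cd80 in migratory DC, 0.96 for Cd86 in macrophages, 0.0084 for Icosl in B cells and -0.029 for Cd86 in Treg cells, a reversal of 1.38 that rests on 16 and 79 UMIs, 18 of them in 1 cell. Thinned values of Ctla4 in Treg over CD4 were 0.89 and 0.91, of Icos in CD4 over CD8 in the WT NOD library 1.28, and of Cd86 in macrophages over B in the other library 1.18. Thinned counts of genes past 1.5-fold were 218 (CD4), 1145 (Treg), 238 (CD8), 3372 (macrophage) and 3422 (migratory DC), against 88, 300, 94, 1689 and 1594. With doublets kept, Ctla4 in Treg between libraries was 0.19, Icos in CD4 over CD8 1.02, Cd80 in migratory DC over B 2.96 and the B-cell count 102, against 179. With no UMI of other lineages, Ctla4 in Treg over CD4 was 0.86 and Icosl in migratory DC over B 1.03 and 1.09. Means over cells gave 0.22 (Ctla4 in Treg, libraries), 0.96 (Ctla4, Treg over CD4), 1.32 (Icos, CD4 over CD8), 3.67 (Cd80, migratory DC over B) and 0.86 (Cd86, macrophage over B), with 521, 229 and 98 genes in Treg, CD8 T and B cells. Without immunoglobulin, T-cell receptor, ribosomal and mitochondrial genes in the total, Ctla4 in Treg over CD4 was 0.70 and 0.76 and Cd86 in macrophages over B 0.26 and 0.73. A pseudocount of 5 CPM gave 2.95 for Cd80 in migratory DC over B. The Treg gate with Il2ra and Ikzf2 gave 0.89 for Ctla4 over CD4, 1.02 for Icos in CD4 over CD8 and 165 CD4 genes. At 50 CPM or more, 32, 72, 42, 66, 651 and 642 genes passed in CD4, Treg, CD8, B, macrophage and migratory DC gates. The limit scaled to depth, chosen after seeing the data, gave 284 B-cell genes. For these values the cause was not tested. The number of cells limits the myeloid, ILC2 and plasmacytoid DC gates, and 1 to 3 UMIs of a member are near the limit that a count of 0 allows.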

Other observations

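Receptor transcripts were also counted outside T cells. Plasma cells had 39.6 CPM (28.3 to 54.0) and 62.1 CPM (49.6 to 76.8) of Cd28 and 90.2 and 57.7 CPM of Ctla4, against 4.0 and 4.1 CPM and 23.7 and 31.0 CPM in B cells. CD28 is known on plasma cells. Cd28 was called higher than in B cells, by log2 3.02 and 3.63, where 6.45% of 5275 genes were called higher and 74.6% lower. Icos was not part of this: plasma cells had 1 and 4 Icos UMIs beside 40 and 85 of Cd28, 0.025 and 0.047 for each Cd28 UMI, while all kept cells had 0.902 and 0.982. The summed Cd3d, Cd3e and Cd3g level was 8.92 and 5.85 CPM in plasma cells and 27.5 and 16.2 CPM in B cells, with all 3 genes detected in each. Plasma cells were deep, at medians of 24545 and 26290 UMIs, and thinning left Cd28 in 6.82% and 7.27% of them, against 0.468% and 0.762% of B cells.

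The Ctla4 counts of B cells were not in the proportion found over all kept cells. B cells had 5.94 (4.07 to 8.93) and 7.53 (5.51 to 10.5) Ctla4 UMIs for each Cd28 UMI, against 1.71 and 1.82 over all kept cells. Treg cells had 4.11 (3.77 to 4.50) and 3.92 (3.69 to 4.18), which overlapped the B-cell interval in the WT NOD library only. The source of the Ctla4 UMIs in B cells was not tested. A Ctla4 UMI was found in 153 of 1611 and 283 of 1888 B cells.

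Migratory DC had 24.1 CPM (11.6 to 44.3) and 22.9 CPM (14.7 to 34.1) of Icos, from 10 UMIs in 7 cells and 24 UMIs in 17 cells, with 1 and 2 UMIs of Cd28. Their summed level of Cd3d, Cd3e and Cd3g was 14.5 and 12.4 CPM, with Cd3e at 0 in the WT NOD library.

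Ligand transcripts in T cells were low, and some rested on few cells. Of 211 Cd86 UMIs in conventional CD4 T cells of the library labelled NOD.Cxcl16-/-, 29 were in 1 cell, and of 224 in CD8 T cells, 55 were. Cd80 in CD8 T cells was at 0.80 (0.53 to 1.22) between the libraries, from 112 and 111 cells with a UMI and at most 3 and 9 UMIs in a cell. In cycling CD8 T cells the ratio was 1.32, from 7.49 and 20.1 CPM. It was 0.41 both in the Entpd1 or Havcr2 cells and in the remaining CD8 T cells. The summed macrophage markers of that gate were 6.98 and 10.5 CPM and the B-cell markers 14.0 and 9.88 CPM, all detected, and their part in the ratio was not tested.

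Kept cells outside the gates held part of every member's UMIs. The gates together held 69.7% and 62.7% of Cd28, 70.5% and 65.4% of Ctla4, 69.1% and 62.6% of Icos, 35.7% and 31.6% of Cd80, 46.9% and 40.3% of Cd86 and 65.0% and 52.3% of Icosl.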
